A study of Mus musculus with 6 samples.

Results

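The transcripts of 10 genes of the integrated stress response were followed in cardiomyocytes from mice given doxorubicin, an anthracycline cancer drug that poisons topoisomerase II and is toxic to the heart. The genes were Atf4, Atf5, Ddit3, Trib3, Asns, Chac1, Psat1, Phgdh, Sesn2 and Ddit4. They were chosen by name as the transcription factor ATF4 and genes linked to it, by a rule that uses no measured value but with earlier results of these data known, and all 10 were among the 24972 gene rows of the table of normalized read counts. All 10 also passed the minimum mean of 10 normalized counts over the libraries that was set for testing, Phgdh only through the doxorubicin libraries, since its vehicle mean was 7.43. The 6 mice all carried the MX1gfp reporter genotype, so the controls share that altered allele. In the vehicle group, 3 mice received 100 microlitres of phosphate-buffered saline into the peritoneum. In the doxorubicin group, 3 mice received 25 mg per kg of body weight in the same volume as 1 dose. Hearts were taken 48 h later and digested with collagenase, and the myocytes of the ventricles were settled by gravity, which enriches them without sorting. Age and sex are not given in the labels.

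In the integrated stress response, kinases that sense amino acid shortage, misfolded protein in the endoplasmic reticulum, double-stranded RNA or mitochondrial and haem stress phosphorylate the initiation factor eIF2 on its alpha subunit. General translation then slows, while the Atf4 messenger, whose leader carries upstream reading frames, is translated more. ATF4 is a basic leucine zipper (bZIP) factor that pairs with C/EBP proteins on composite sites and switches on genes for amino acid synthesis and uptake, together with the feedback and growth-arrest genes Trib3, Ddit3, Chac1, Sesn2 and Ddit4. Because control of ATF4 is largely translational, the level of its RNA does not report the level of the protein, which was not measured here.

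The promoters are shown first because the genes were chosen by their link to ATF4 and differ in whether a core of its site lies near their start. RefSeq windows of GRCm38.p6 that hold 250 bases before and 50 after a transcription start were matched by symbol for all 10 genes, with 12 windows in all. They were searched on both strands for TGATGNAA, the core of the composite C/EBP-ATF site, in which N is any base. This core was present in the windows of 3 of the 10 genes, Trib3, Asns and Chac1, and in 3.97% of all 32851 windows, or 4.51% of the 27025 genes that have one. In Asns the letters were TGATGAAA, starting at position -23 from the transcription start. In Chac1 they were TTGCATCA, the reverse complement of TGATGCAA, starting at -193. In Trib3 they were TTACATCA, on the opposite strand, at 15 bases into the transcript. The variants TGGTGNAA and TGACGNAA were searched only after these sequences had been read. TGGTGNAA was present as TGGTGCAA in Trib3 at -33 and in Psat1 at -136, and in 3.23% of all windows. TGACGNAA was present as TGACGCAA in Chac1 at -250, and in 1.59% of all windows. None of the 3 cores was in the windows of Atf4, Atf5, Ddit3, Phgdh, Sesn2 or Ddit4. A match describes letters in this window and is not evidence of binding.

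The 250 bases before the start are printed 5′ to 3′ on the strand of the gene, with matches to any of the 3 cores in capitals. Asns, Chac1, Trib3 and Psat1 have a match, the one of Trib3 at 15 lying past the printed bases. Sesn2 and Ddit4 have none here and are shown because they had the largest differences of the 10.
Asns, chr6:7693210-7693459, minus strand: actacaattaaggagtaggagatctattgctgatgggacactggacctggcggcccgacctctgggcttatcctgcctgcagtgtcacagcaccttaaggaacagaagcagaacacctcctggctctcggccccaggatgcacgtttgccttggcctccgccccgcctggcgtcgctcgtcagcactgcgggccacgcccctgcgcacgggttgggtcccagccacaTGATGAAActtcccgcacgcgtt
Chac1, chr2:119350992-119351241, plus strand: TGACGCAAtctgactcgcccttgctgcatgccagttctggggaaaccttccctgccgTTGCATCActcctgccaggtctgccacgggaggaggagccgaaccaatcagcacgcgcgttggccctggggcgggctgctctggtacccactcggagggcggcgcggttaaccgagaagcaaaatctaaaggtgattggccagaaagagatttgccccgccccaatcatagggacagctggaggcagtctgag
Trib3, chr2:152344061-152344310, minus strand: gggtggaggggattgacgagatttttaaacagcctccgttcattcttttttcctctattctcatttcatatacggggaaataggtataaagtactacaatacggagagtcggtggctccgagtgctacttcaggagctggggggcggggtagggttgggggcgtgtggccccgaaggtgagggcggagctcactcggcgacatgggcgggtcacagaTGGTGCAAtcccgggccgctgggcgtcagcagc
Psat1, chr19:15925060-15925309, minus strand: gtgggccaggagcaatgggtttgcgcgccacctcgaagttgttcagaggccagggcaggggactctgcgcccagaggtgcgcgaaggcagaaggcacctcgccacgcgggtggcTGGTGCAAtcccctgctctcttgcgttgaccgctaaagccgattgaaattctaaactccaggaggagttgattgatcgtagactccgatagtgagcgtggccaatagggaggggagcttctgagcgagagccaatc
Sesn2, chr4:132510457-132510706, minus strand: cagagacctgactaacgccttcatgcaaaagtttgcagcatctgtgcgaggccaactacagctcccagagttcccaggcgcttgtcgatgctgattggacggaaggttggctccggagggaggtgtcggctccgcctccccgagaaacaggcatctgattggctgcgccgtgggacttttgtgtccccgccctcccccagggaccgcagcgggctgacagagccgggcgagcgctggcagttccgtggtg
Ddit4, chr10:59951771-59952020, minus strand: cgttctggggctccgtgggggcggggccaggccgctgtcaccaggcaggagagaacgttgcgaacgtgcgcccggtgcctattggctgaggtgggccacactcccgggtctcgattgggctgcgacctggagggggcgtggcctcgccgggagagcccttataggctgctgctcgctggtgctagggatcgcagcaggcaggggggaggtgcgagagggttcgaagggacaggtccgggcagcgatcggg

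Libraries held between 5410780 and 7500386 normalized counts. From the spacing of low values, 1 read was worth about 0.637 to 0.953 normalized counts with vehicle and 1.05 to 1.48 after doxorubicin, so the doxorubicin libraries were all shallower, and depth and treatment cannot be told apart. Doxorubicin replicate 1 lay nearer to the vehicle libraries than the other doxorubicin libraries did, at -16.2 on the first principal component against 59.0 and 80.2 and against -47.4 to -36.8 with vehicle. The 7 cardiomyocyte markers, Myh6 among them, had a summed level of 555255 to 655591 normalized counts with vehicle and 492270, 161589 and 139851 in doxorubicin replicates 1, 2 and 3, and 5 of the 7 were lower without overlap between the groups. The 10 macrophage markers summed to 2583 to 2791 with vehicle and to 4238, 7421 and 15615 after doxorubicin, and 9 of the 10 were higher without overlap. The 6 neutrophil markers summed to 10.5 to 21.7 and to 55.0, 563 and 419, and 4 of the 6 were higher without overlap, with Ly6g at 0 in every vehicle library and in doxorubicin replicate 1. No marker of these 3 lists was at 0 in all libraries. The 8 fibroblast markers summed to 6236 to 8274 with vehicle and 8639, 22816 and 16406 after doxorubicin, and 3 of the 8 were higher without overlap. The 7 endothelial markers summed to 12295 to 15975 and to 20514, 17908 and 23911, and 4 of the 7 were higher without overlap. Beside these counts, 19.2% of all genes tested were higher and 22.6% lower without overlap. Doxorubicin replicate 1 had the highest sum of the 5 atrial markers, 1558 against 612 to 712 with vehicle and 499 and 841 in the other doxorubicin libraries. The part of this shift in any result below was not tested, and in bulk RNA fewer cells of a type and less RNA per cell cannot be told apart.

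Among the 10 genes, Ddit4, Sesn2 and Trib3 had several times the vehicle level in doxorubicin replicates 2 and 3, Asns was higher by a smaller margin in all 3 doxorubicin libraries, and Atf4, Atf5 and Ddit3 had nearly equal means in the groups. None of the 10 passed a Benjamini-Hochberg adjusted p of 0.05 in limma, and neither did any other gene (0% of 12477 tested, with 4485 at an unadjusted p under 0.05). The smallest adjusted p of any gene in that fit was 0.0859. The adjustment gave this value alike to genes with an unadjusted limma p of 0.000888 (Fas) and 0.0118 (Eif2ak3), so it does not rank the genes that share it. At an unadjusted p under 0.05, 3 of the 10 were higher and 0 lower, against 16.7% and 19.3% of all genes tested. Ddit4, Asns and Phgdh, 3 of the 10, had groups without overlap, all higher after doxorubicin (Phgdh having entered through that group), against 19.2% of all genes tested that were higher in this way and 22.6% that were lower. The median log2 fold change of the 10 was 0.75, against 0.00 (-0.0046) for all genes tested. Fold changes are doxorubicin minus vehicle of log2(value + 1), which understates the change of genes with low values.

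**Figure D1:**
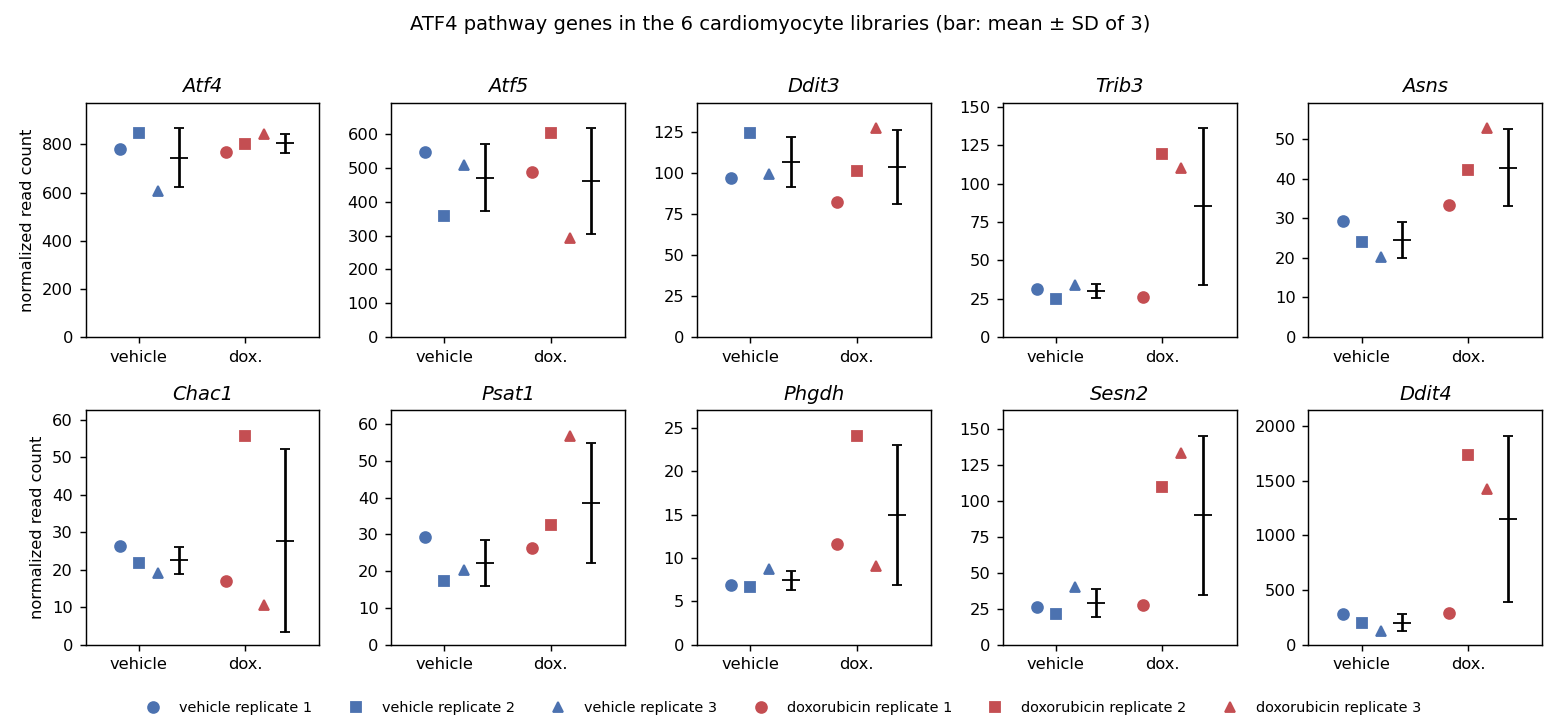
Normalized read counts (vertical axes, from 0) of each of the 10 genes in the 3 vehicle and 3 doxorubicin libraries, with the symbol giving the replicate and the black bar the mean ± SD of 3. In Ddit4, Sesn2 and Trib3 doxorubicin replicates 2 and 3 stand far above the other 4 libraries, whereas in Atf4 and Ddit3 the groups lie at the same height.

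Ddit4 encodes REDD1, an inhibitor of the growth kinase complex mTORC1, and had the largest difference. Its normalized counts were 275, 199 and 122 in the vehicle libraries, in order of replicate number, and 290.5, 1737 and 1425 in the doxorubicin libraries. Doxorubicin replicate 1 was thus just above the highest vehicle library, and the other doxorubicin libraries were far above it. The means were 199 ± 76.4 and 1151 ± 761 (SD, n = 3 in each group), a ratio of 5.80, and the log2 fold change was 2.25 (SE 0.65, 95% interval 0.72 to 3.77, limma adjusted p 0.0859).

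Sesn2 encodes sestrin 2, a leucine sensor that also restrains mTORC1. It had 26.3, 20.9 and 39.9 normalized counts with vehicle and 27.5, 109 and 133 after doxorubicin. Doxorubicin replicate 1 lay inside the vehicle range, so the groups overlapped, and replicates 2 and 3 were above it. The group means were 29.0 ± 9.78 and 89.9 ± 55.4 (SD, n = 3), a ratio of 3.10, with a log2 fold change of 1.37 (SE 0.58, 95% interval 0.02 to 2.71, adjusted p 0.135).

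Trib3, a pseudokinase that binds ATF4 and acts as its feedback inhibitor, had the same arrangement. Its values were 31.3, 24.6 and 34.0 with vehicle and 26.3, 119 and 110.0 after doxorubicin. Again replicate 1 fell within the vehicle libraries and replicates 2 and 3 at far above all of them. The means were 29.98 ± 4.83 and 85.2 ± 51.2 (SD, n = 3), a ratio of 2.84, and the log2 fold change was 1.22 (SE 0.55, 95% interval -0.06 to 2.49, adjusted p 0.152).

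Doxorubicin replicate 1 decided whether these genes were called. Without it limma called 4 of the 10 genes higher and 0 lower, against 19.3% of all genes tested called higher and 21.8% called lower in the same fit. The log2 fold change was then 3.06 for Ddit4 (adjusted p 0.000379), 2.07 for Sesn2 (0.00157), 1.91 for Trib3 (0.000771) and 0.93 for Asns (0.0336). Because this library lay nearest to the vehicle libraries, leaving it out or weighting it down favours larger differences over the whole table. Such fits show how the calls depend on it and are no separate evidence for these genes. Over all alternatives the adjusted p of limma ran from 0.000379 to 0.256 for Ddit4, from 0.00157 to 0.3504 for Sesn2, from 0.000771 to 0.378 for Trib3 and from 0.0336 to 0.288 for Asns. Every alternative run kept the positive sign of these 4 genes, except that a minimum mean of 50 left Asns untested. With library weights, which gave doxorubicin replicate 1 the weight 0.277, 3 of the 10 were called higher (Ddit4, Sesn2 and Trib3) and 0 lower, against 15.7% and 18.6% of all genes tested. At a threshold of 0.10 with all libraries Ddit4 was called higher and none lower, against 11.1% and 13.1%. Libraries also differ in a way that treatment does not explain, with Xist transcripts in vehicle replicate 3 and doxorubicin replicates 1 and 3 and Y-linked transcripts in the others. Within the Y-linked libraries (2 vehicle, 1 doxorubicin) the log2 differences of Ddit4, Sesn2, Trib3 and Asns were 2.89, 2.17, 2.06 and 0.65. Within the Xist libraries (1 vehicle, 2 doxorubicin) they were 2.39, 0.60, 0.65 and 1.02. These within-class values have no test, since each class has a group of 1.

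**Figure D2:**
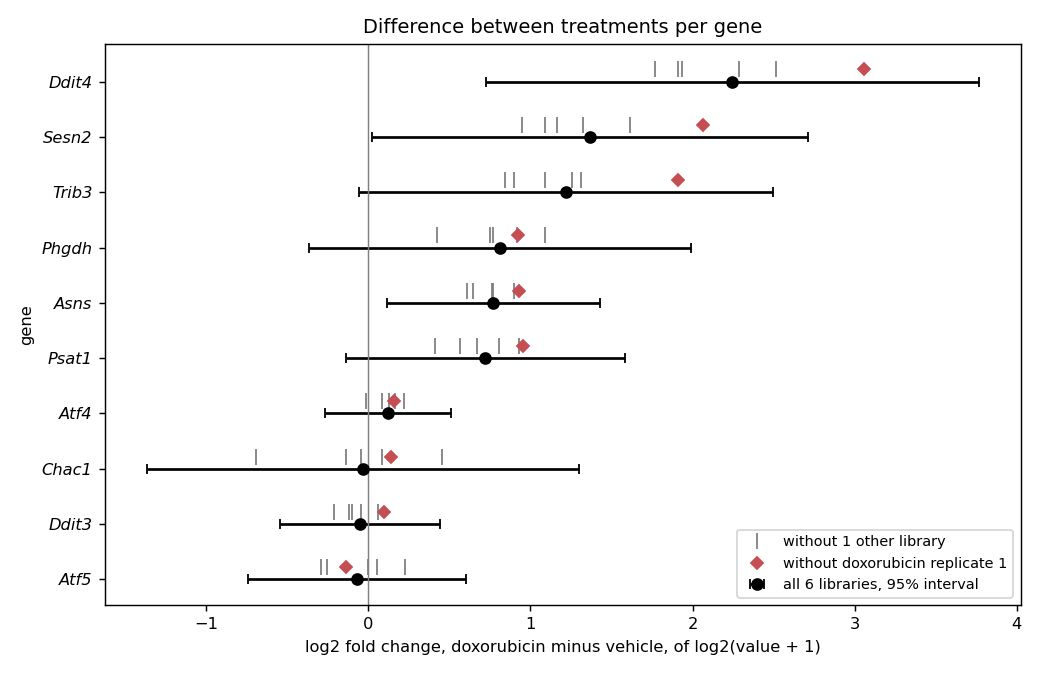
Log2 fold change of log2(value + 1), doxorubicin minus vehicle (horizontal axis), of each gene with all 6 libraries (black point, bar for the 95% interval), without doxorubicin replicate 1 (red diamond) and without each other library (grey ticks). Removing doxorubicin replicate 1 moves Ddit4 from 2.25 to 3.06, Sesn2 from 1.37 to 2.07 and Trib3 from 1.22 to 1.91, and the estimates of Atf4, Atf5, Ddit3 and Chac1 fall on both sides of 0, most widely for Chac1 (-0.69 to 0.45).

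The amino acid synthesis genes were present at low levels and differed less. Asns, which makes asparagine from aspartate, had 29.3, 24.0 and 20.3 normalized counts with vehicle and 33.5, 42.2 and 52.9 after doxorubicin. Every doxorubicin library exceeded every vehicle library, and replicate 1 did so by the smallest margin. The means were 24.5 ± 4.50 and 42.8 ± 9.72 (SD, n = 3), a ratio of 1.75, with a log2 fold change of 0.77 (SE 0.28, 95% interval 0.12 to 1.43, adjusted p 0.104).

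Psat1 is the aminotransferase of the serine pathway. Its values were 29.4, 17.3 and 20.3 with vehicle and 26.2, 32.6 and 57.0 after doxorubicin. Doxorubicin replicate 1 lay within the vehicle range and replicate 3 was the highest library, at 1.35 above the vehicle mean on the log2 scale. The log2 fold change was 0.72 (SE 0.37, 95% interval -0.14 to 1.58, adjusted p 0.195), and it was 0.41 without doxorubicin replicate 3.

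Phgdh, the first enzyme of serine synthesis, was the scarcest of the 10. It had 6.92, 6.67 and 8.69 normalized counts with vehicle and 11.6, 24.1 and 9.05 after doxorubicin, which correspond to only about 6 to 20 reads in a library. The groups did not overlap, but doxorubicin replicate 3 exceeded the highest vehicle library by less than the value of 1 read there (1.48). The log2 fold change of 0.81 (SE 0.51, 95% interval -0.36 to 1.99, adjusted p 0.272) was 0.43 without doxorubicin replicate 2.

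Chac1, which degrades glutathione, gave opposite readings in the doxorubicin libraries. Its normalized counts were 26.3, 21.8 and 19.2 with vehicle and 16.9, 55.8 and 10.6 after doxorubicin. Replicate 2 was above every vehicle library, and replicates 1 and 3 were below every vehicle library, the last resting on about 7 reads. The log2 fold change was -0.03 (SE 0.57, 95% interval -1.37 to 1.30, adjusted p 0.972), the widest interval among the 10 apart from those of Ddit4 and Sesn2.

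With the values as deposited, the transcription factor genes showed no difference beyond the replicate spread. Atf4 had 781, 846 and 607 normalized counts with vehicle and 767, 799 and 845 after doxorubicin. All 3 doxorubicin libraries lay within the vehicle range. The means were 745 ± 123 and 804 ± 39.0 (SD, n = 3), and the log2 fold change was 0.12 (SE 0.17, adjusted p 0.617) with a 95% interval of -0.27 to 0.51.

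Atf5, a related bZIP factor that is also translated under eIF2 phosphorylation, had 549, 359 and 509 with vehicle and 489, 604 and 295 after doxorubicin. Doxorubicin replicate 2 was its highest library and replicate 3 its lowest. The log2 fold change was -0.07 (SE 0.29, 95% interval -0.74 to 0.61, adjusted p 0.882). Ddit3, which encodes the pro-apoptotic factor CHOP, had 97.0, 125 and 99.2 with vehicle and 82.7, 101 and 128 after doxorubicin. Its lowest and highest libraries were both from doxorubicin mice, and the log2 fold change was -0.05 (SE 0.21, 95% interval -0.55 to 0.44, adjusted p 0.870). With each library scaled to the same total, which moves the median of all genes to 0.29, the values of Atf5, Ddit3 and Chac1 were 0.23, 0.24 and 0.25, so their sign depends on the scaling and stays below that shift.

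Per kilobase of the longest coding transcript in GENCODE M21, Atf4 was the most abundant of the 10 with vehicle, at 352 to 491 normalized counts per kilobase over the libraries. Atf5 followed at 198 to 302 and Ddit3 at 109 to 140.05. The range of Ddit4, 69.5 to 157, took in that of Ddit3. Trib3 (12.2 to 16.8), Chac1 (11.7 to 16.1) and Asns (10.1 to 14.5) overlapped each other. Psat1 (6.61 to 11.2) and Sesn2 (6.02 to 11.5) overlapped each other and also Asns, and Phgdh was lowest at 3.52 to 4.59. After doxorubicin Ddit4 reached 990 and 812 per kilobase in replicates 2 and 3, above the levels of Atf4 in the same libraries (463 and 489.6). In replicate 1 it stayed below Atf4, at 166 against 445.

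**Figure D3:**
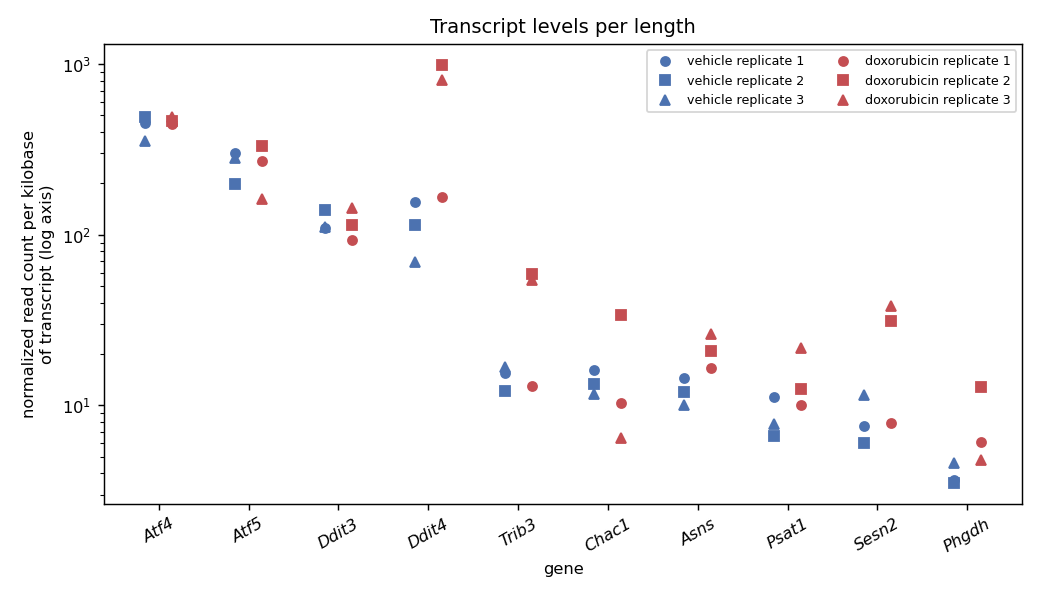
Normalized read count per kilobase of transcript (log axis) of the 10 genes in each library, ordered by the vehicle mean. Atf4 lies at 352 to 491 in all vehicle libraries, and Ddit4 moves above it in doxorubicin replicates 2 and 3 only.

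Taken library by library, 3 of the 10 genes lay above the vehicle range and 2 below it in doxorubicin replicate 1, against 29.4% and 34.6% of all genes tested. In replicate 2, 8 were above and 0 below, against 39.8% and 40.3%. In replicate 3, 7 were above and 2 below, against 42.3% and 43.0%. The median of the 10 relative to the vehicle mean was 0.06, 1.03 and 0.68 on the log2 scale in replicates 1, 2 and 3. Trib3, Sesn2 and Ddit4 had almost equal values in replicates 2 and 3, whereas Chac1, Phgdh and Atf5 were high in replicate 2 and not in replicate 3. Psat1 and Asns were highest in replicate 3. The members therefore did not share 1 order over the doxorubicin libraries.

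**Figure D4:**
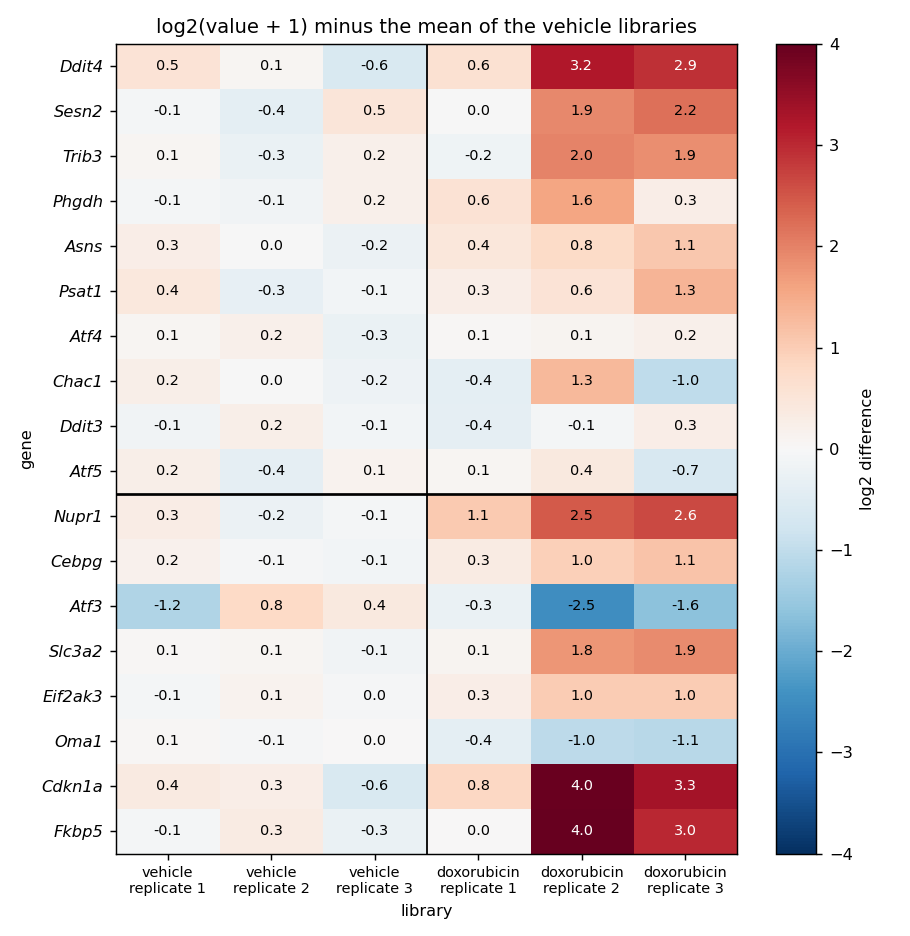
Log2(value + 1) minus the mean of the vehicle libraries (colour and printed number) for the 10 genes, above the black line, and 8 related genes below it, in each library (columns). Doxorubicin replicates 2 and 3 are high for Ddit4 (3.20 and 2.91), Sesn2, Trib3, Nupr1, Slc3a2, Cdkn1a and Fkbp5. Replicate 1 is near 0 for Sesn2, Trib3, Slc3a2 and Fkbp5, and at 0.62 for Ddit4, 1.05 for Nupr1 and 0.83 for Cdkn1a. Atf3 is low in replicates 2 and 3.

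Other genes of the response were taken from lists that hold 71 genes besides the members, of which 66 were tested. None was called with all 6 libraries (0 higher, 0 lower at an adjusted p under 0.05 in limma, with 13 higher and 14 lower at an unadjusted p under 0.05). The groups did not overlap in 11 that were higher and 15 that were lower, which is 16.7% and 22.7% and near the shares of 19.2% and 22.6% over all genes tested. Their median log2 fold change was -0.11. Without doxorubicin replicate 1, 12 of the 66 were called higher and 16 lower, against 19.3% and 21.8% of all genes tested in the same fit.

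Upstream of ATF4, the eIF2 kinases differed little apart from Eif2ak3. Eif2ak3 encodes PERK, the kinase of the endoplasmic reticulum, and had 87.9, 102 and 89.9 normalized counts with vehicle and 113, 189 and 188 after doxorubicin. Every doxorubicin library was above the vehicle range, and the log2 fold change was 0.76 (SE 0.23, adjusted p 0.0859). Eif2ak2, the double-stranded RNA sensor PKR and an interferon-induced gene, had 131 to 158 with vehicle and 189, 147 and 303 after doxorubicin, so replicate 2 lay within the vehicle range (0.47, adjusted p 0.230). Eif2ak1 (the haem-regulated kinase) and Eif2ak4 (the amino acid sensor GCN2) had log2 fold changes of 0.11 and 0.33 (adjusted p 0.609 and 0.229), and both overlapped between groups. Ppp1r15b, the constitutive targeting subunit of the eIF2 alpha phosphatase, had 263 to 352 with vehicle and 353, 515 and 528 after doxorubicin (0.60, adjusted p 0.0929). Ppp1r15a, the inducible subunit GADD34 and itself an ATF4 target, was at 651 ± 159 and 661 ± 67.8 (SD, n = 3; log2 fold change 0.04, adjusted p 0.887).

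Oma1 and Dele1 form the relay by which mitochondrial stress reaches the haem-regulated kinase, OMA1 being the protease that cleaves DELE1. Oma1 had 265, 246 and 257 normalized counts with vehicle and 193, 124 and 119 after doxorubicin. Dele1 had 1467, 1375 and 1680 with vehicle and 1238, 621 and 539 after doxorubicin. Both were lower in every doxorubicin library than in any vehicle library, with log2 fold changes of -0.85 (SE 0.21) and -1.01 (SE 0.31) and an adjusted p of 0.0859 each. Eif2b4, a subunit of the exchange factor eIF2B that phosphorylated eIF2 blocks, was likewise lower without overlap (-0.59, adjusted p 0.0859). The summed cardiomyocyte markers were lower in the same libraries, and their part in these values was not tested.

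Of the 6 genes for bZIP partners of ATF4 and Nupr1, 3 were higher and 0 lower without overlap, with a median of 0.71. For this list and those below, 19.2% of all genes tested were higher and 22.6% lower in this way. Nupr1, a small stress-induced chromatin protein, had 17.1, 11.4 and 13.0 normalized counts with vehicle and 29.4, 80.1 and 89.9 after doxorubicin. Cebpg, which encodes a dimer partner of ATF4, had 255, 217 and 210 (209.6) with vehicle and 282, 440.2 and 503 after doxorubicin. Jdp2 had 60.2 to 76.4 with vehicle and 108, 254 and 249.5 after doxorubicin. In these 3 genes the groups did not overlap, and the log2 fold changes were 2.05, 0.81 and 1.52 (SE 0.45, 0.23 and 0.34, adjusted p 0.0859 each).

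Atf3, a stress-induced repressor often raised with ATF4, went the other way. Its values were 244, 979 and 741 with vehicle and 467, 100.0 and 180 (179.7) after doxorubicin. Doxorubicin replicates 2 and 3 were below every vehicle library and replicate 1 was within their range, so the groups overlapped, and the log2 fold change was -1.46 (SE 0.66, adjusted p 0.152). Cebpb had a log2 fold change of 0.41 (adjusted p 0.284) and Nfe2l2, the antioxidant regulator NRF2, of 0.60 (adjusted p 0.136), both with overlapping groups.

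Amino acid transporters had a median of 1.03 over 8 tested genes, of which 3 were higher and 1 lower without overlap. Slc7a11 counts in that median and passed the minimum mean only through doxorubicin replicate 3. Slc3a2, the heavy chain shared by several exchangers, had 334, 341 and 294 normalized counts with vehicle and 350.3, 1093 and 1198 after doxorubicin (1.26, SE 0.43, adjusted p 0.0954). Its replicate 1 was barely above the vehicle range, as in Ddit4. Slc1a4 was higher in all 3 doxorubicin libraries at a low level (0.84, adjusted p 0.108), and Slc7a5, the leucine exchanger that pairs with Slc3a2, differed by 0.41 (adjusted p 0.214), also without overlap. Slc1a5, a glutamine carrier, had 74.5 to 142 with vehicle and 117, 368 and 395 after doxorubicin (1.22, adjusted p 0.117). Slc7a1, a carrier of cationic amino acids, was lower without overlap (-0.51, adjusted p 0.0979). Slc7a11, the cystine exchanger that is a standard ATF4 target, was at 0.648 to 1.93 with vehicle and at 0, 2.39 and 103 after doxorubicin. Its difference rested on doxorubicin replicate 3 and was -0.37 without that library. Replicate 3 had both the highest macrophage markers and the fewest estimated reads, and the part of either in this value was not tested.

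Enzymes of serine, one-carbon and other amino acid metabolism had a median of -0.60 over 9 tested genes, with 1 higher and 4 lower without overlap. Shmt2, the mitochondrial serine hydroxymethyltransferase, had 406, 370.3 and 375 normalized counts with vehicle and 330 (329.9), 242 and 199.98 after doxorubicin (-0.60, SE 0.20, adjusted p 0.0889). Gpt2 (-0.78, adjusted p 0.0859) and Aldh1l2 (-0.87, adjusted p 0.0981) were also lower without overlap. Mthfd1l, the gene that was higher, passed the minimum mean only through the doxorubicin libraries, at 2.66 to 6.26 with vehicle and 10.7, 16.6 and 26.2 after doxorubicin (1.81, adjusted p 0.0860). Psph, which completes serine synthesis after Phgdh and Psat1, had a log2 fold change of -0.13 (adjusted p 0.777), and Mthfd2 of 0.25 (adjusted p 0.606).

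Of the 13 tRNA synthetase genes usually counted as ATF4 targets, 1 was higher and 2 were lower without overlap, and the median was -0.14. These counts are 7.69% and 15.4%, both below the shares over all genes tested. The higher gene was Wars, which interferon also induces, with 457 to 563 normalized counts with vehicle and 598, 667 and 870 (869.8) after doxorubicin (0.49, SE 0.18, adjusted p 0.107). Iars, Lars and Yars had log2 fold changes of -0.45, -0.41 and -0.29. The 7 other synthetases had a median of -0.30, all 7 with negative values, and Dars, Farsb and Rars were lower without overlap (-0.53, -1.15 and -0.35).

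Secreted and other targets were mixed. Gdf15, a stress cytokine, had 8.94, 16.6 and 6.28 normalized counts with vehicle and 19.7, 46.2 and 95.9 after doxorubicin (2.07, SE 0.60, adjusted p 0.0859). Fgf21, the other hormone of the mitochondrial stress response, was listed at 0 in 5 libraries and at 1.05, about 1 read, in doxorubicin replicate 1. Vegfa had 1851 to 2832 with vehicle and 2037, 372 and 606 after doxorubicin (-1.59, adjusted p 0.0984), and Vldlr had a log2 fold change of -0.69 (adjusted p 0.124), both with overlapping groups. The 15 chaperones and folding enzymes of the endoplasmic reticulum, which the ATF6 and XBP1 arms control, had a median of -0.11, with 0 higher and 6 lower without overlap. Hspa5, the chaperone BiP, had 4449 to 5539 normalized counts with vehicle and 3831, 2385.5 and 2780.5 after doxorubicin (-0.79, SE 0.24, adjusted p 0.0859).

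**Figure D5:**
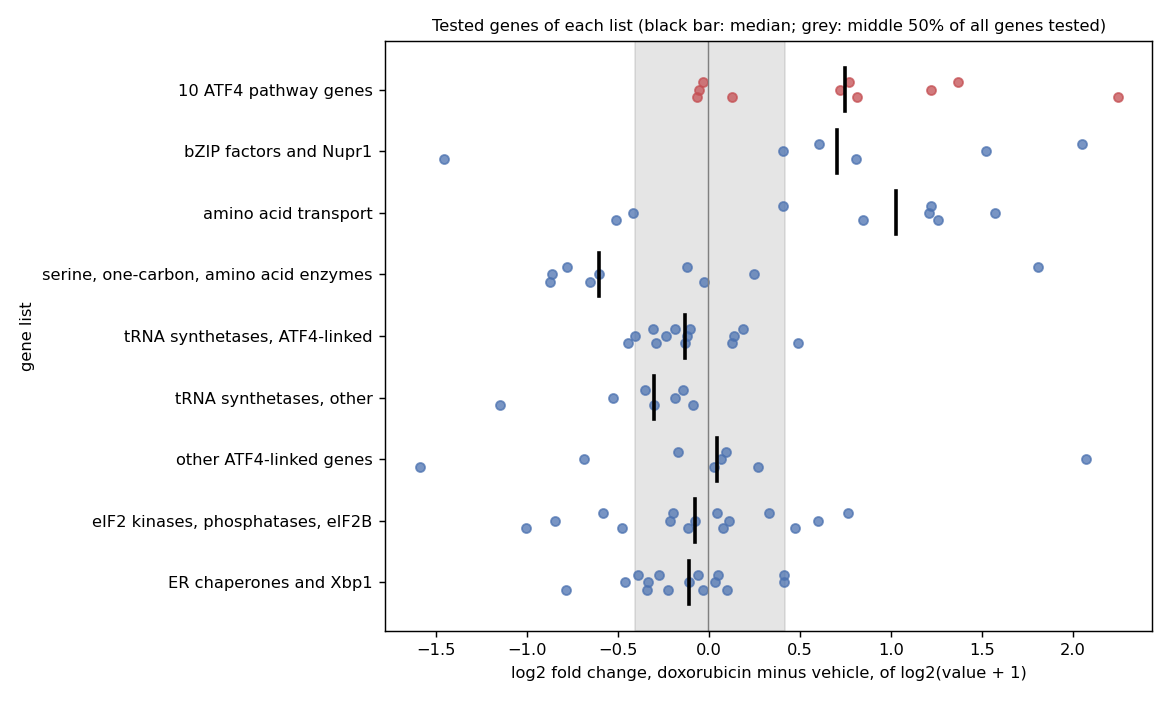
Log2 fold change of log2(value + 1), doxorubicin minus vehicle (horizontal axis), of each tested gene in 9 lists (rows), with the list median as a black bar and the middle 50% of all tested genes in grey. Medians were 0.75 for the 10 genes, 0.71 for the bZIP list and 1.03 for transporters, and between -0.60 and 0.04 for the other 6 lists.

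Among 6 paralogues of the members, 1 was higher (Trib2) and 1 lower (Chac2) without overlap, with a median of -0.12. Sesn1 had 706 to 967 normalized counts with vehicle and 652, 1010 (1009.6) and 651 after doxorubicin (-0.13, adjusted p 0.697), and Sesn3 had a log2 fold change of -0.45 (adjusted p 0.358). Trib1 was at -0.11 and Trib2 at 0.33 (adjusted p 0.760 and 0.198). Ddit4l was scarce, at 12.4 to 14.7 with vehicle and 8.38, 14.5 and 26.2 after doxorubicin (0.12, adjusted p 0.865). Chac2, the housekeeping relative of Chac1, had 101 to 152 with vehicle and 94.4, 36.6 and 28.4 after doxorubicin, lower in all 3 libraries (-1.42, SE 0.43, adjusted p 0.0859). The differences between paralogues were not tested.

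Ddit4 and Sesn2 are also known targets of p53, of glucocorticoids or of hypoxia, so genes of those programmes were read in the same libraries. Cdkn1a, the p53-induced cell cycle inhibitor, was at 0.83, 3.96 and 3.32 above the vehicle mean on the log2 scale in doxorubicin replicates 1, 2 and 3, and Fkbp5, a glucocorticoid receptor target, at 0.03, 4.01 and 3.00. Ddit4 was at 0.62, 3.20 and 2.91. The 11 p53 targets had a median of 1.17, with 5 higher and 1 lower without overlap, against 19.2% and 22.6% of all genes tested. The 8 glucocorticoid targets had a median of 1.21, with 1 higher without overlap, Sgk1, and doxorubicin replicate 1 within the vehicle range for the other 7. Sgk1 was at 544 to 1007 with vehicle and 1071, 1947 and 2149 after doxorubicin (1.05, adjusted p 0.0863). The 8 hypoxia targets had a median of 0.38, with Ndrg1 (1.11) and Ankrd37 (1.24) higher and Pdk1 lower without overlap, Pdk1 being named after its values were seen, and with 3 higher and 3 lower at an unadjusted p under 0.05. Vegfa was below the vehicle range in replicates 2 and 3 only. Which regulator bears on Ddit4 or Sesn2 was not tested.

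The 5 genes whose profile over the 6 libraries was most like that of Atf4 were Mat2a, Sec11a, 2410002F23Rik, Plcd1 and Vamp3, with a root mean square difference of 0.05 to 0.07 on the centred log2 scale among 12467 other genes. Mat2a, which makes S-adenosylmethionine, was the nearest, with 1034, 1091 and 818 normalized counts with vehicle and 982, 1036 and 1028 after doxorubicin. Their log2 fold changes ran from 0.06 to 0.15. The other members were not ranked. The 6 libraries share depth and treatment, so this is a description of the profiles.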

How the data were processed

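Total RNA was sequenced from cardiomyocytes of 3 vehicle-treated and 3 doxorubicin-treated mice. Per the series' design text, the authors aligned reads to mm10 (RefSeq) with STAR in BaseSpace; the submitters' processing notes name STAR 2.6.1a and Salmon. How reads were counted, whether strand was used, the normalization and any filters: not given in the sources used here. What the authors deposited is a signal, namely normalized counts, with a row for each gene and a column for each library.

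Groups and replicate numbers came from the titles. Values were used as deposited, a pseudocount of 1 was added, and log2 values of genes with a mean of at least 10 entered limma 3.58.1 under R 4.3.3 (moderation with a mean trend, two-sided, Benjamini-Hochberg over 12477 genes, threshold 0.05). The steps were tested on simulated counts of equal depth with no divergent library, so that test does not cover the unequal depth or doxorubicin replicate 1 of these data. The smallest p an exact permutation test, two-sided, can give here is 0.1, so none is printed. Each library came from a separate mouse as far as the labels state (n = 3 per group). Reads were estimated by taking the most common low value as 1 read, and between 80.2% and 92.4% of low values lay within 0.1 of a whole multiple, too few for a test on counts. Gene symbols and promoters come from RefSeq, GRCm38.p6. The 10 genes, the 12 other gene lists and 9 marker lists were chosen with earlier results of these data known. Named genes were the 10 members, a set chosen by name, the 4 genes with the smallest unadjusted p of each response list, the 2 of each p53, glucocorticoid and hypoxia list, and the 5 genes most like Atf4. Alternatives were pseudocounts of 0.5 and 8, no minimum mean and one of 50, equal totals, quantile normalization, no trend, robust moderation, library weights, a replicate block, the Xist or Y-linked class as covariate, a threshold of 0.10 and leaving out each library. Plots used matplotlib 3.10.9 (Python 3.11.15).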

Additional observations from a re-analysis of the deposited data

How the results depend on the processing

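The number of the 10 genes called higher was 0 with all libraries, 3 with library weights (Ddit4, Sesn2 and Trib3), 1 at a threshold of 0.10 (Ddit4) and 0 to 4 when 1 library was left out, and 0 were called lower in any of these. Of the 66 other response genes tested, 12 were called higher and 15 lower with library weights, 8 and 11 at a threshold of 0.10, and 0 to 12 higher and 0 to 16 lower without 1 library. Over all genes tested, 1954 were higher and 2318 lower with library weights (15.7% and 18.6%), and 1383 and 1639 at a threshold of 0.10 (11.1% and 13.1%). Without 1 library, 0 to 2409 were higher and 0 to 2718 lower, at most 19.3% and 21.8%. Among the fits without 1 library, those without doxorubicin replicate 1 and, with 1 gene lower, without doxorubicin replicate 2 gave calls. The median of the other response genes moved from -0.11 to 0.19 with equal totals, which shift the median of all genes to 0.29.

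The values whose sign changed lay within 0.30 of 0 with all libraries, except that of Slc7a11 (1.57), which rested on doxorubicin replicate 3. With equal totals Atf5 was 0.23, Ddit3 0.24, Chac1 0.25, Yars 0.0054, Sesn1 0.17, Psph 0.17 and Trib1 0.19. With library weights Atf5 was 0.19, Chac1 0.51 and Sesn1 0.0502. With the class covariate Atf5 was 0.011, Chac1 0.35 and Psph 0.017. Chac1 was 0.0276 at a pseudocount of 8. Under quantile normalization Mthfd2 was -0.00376 and Ddit4l -0.24. When 1 library was left out the values ran from -0.0175 to 0.22 for Atf4, -0.29 to 0.23 for Atf5, -0.21 to 0.10 for Ddit3 and -0.69 to 0.45 for Chac1. They ran from -0.12 to 0.23 for Ppp1r15a, -0.0105 to 0.43 for Mthfd2, -0.37 to 2.98 for Slc7a11, -0.27 to 0.50 for Ddit4l, -0.30 to 0.16 for Trib1, -0.065 to 0.14 for Mat2a, -0.0275 to 0.13 for 2410002F23Rik and -0.0099 to 0.21 for Plcd1. The cause of these changes was not tested. A minimum mean of 50 left Asns, Chac1, Psat1 and Phgdh untested.

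Same-numbered libraries did not deviate together, with correlations of -0.13, 0.03 and -0.09 for numbers 1, 2 and 3, and no number had its highest correlation with its own partner. With the replicate number as a block 0 of the 10 genes and 0 of all genes were called in limma (3708 at an unadjusted p under 0.05), and the adjusted p of Ddit4 was 0.115. Phgdh and Chac1 had the fewest reads of the 10, about 65 and 155 over all 6 libraries.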
